A study of Mus musculus with 2 samples.

Results

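The genes described are 42 interleukins, colony-stimulating factors and their receptor chains, given as a list of names and not by a measured value. All 42 were found among 55487 gene rows. They were read in 2 RNA-seq libraries of small peritoneal macrophages, the largely monocyte-derived macrophages of the peritoneal cavity, sorted by a gate that the labels do not give. The mice were males of the outbred SWISS stock, 5 weeks old. The LPS+LCC-12 library was a pool of 66967 cells from 8 mice given 20 mg/kg lipopolysaccharide (LPS) into the peritoneum and 0.3 mg/kg LCC-12 by the same route 6 h later. The LPS library was a pool of 102283 cells from 7 mice given the same LPS dose, and the labels name no vehicle in place of LCC-12. Both groups were also given subcutaneous saline (30 mL/kg at 6 h), and the mice were killed at 22 h, both times counted from LPS. No unchallenged group was analysed here. Background knowledge of LCC-12 is that it targets mitochondrial copper.

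Interleukins and colony-stimulating factors are secreted proteins that carry signals between immune cells. Most of the receptors listed here have no enzyme of their own: on ligand binding their chains come together and bound Janus kinases activate STAT transcription factors, with SOCS proteins acting as brakes. The CSF1 receptor is itself a tyrosine kinase that macrophages need to survive, IL-17 receptors use the adaptor Act1, and the receptors for IL-33 and IL-36 use MyD88. In macrophages exposed to LPS, a ligand of Toll-like receptor 4, Il6, Il10, the IL-12 family and Csf3 are known to be induced through NF-kB and related factors.

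The deposited counts summed to 47721888 in the LPS+LCC-12 library and 50618409 in the LPS library. Each group was 1 library of pooled cells, so no difference below was tested against the variation between mice. Ratios are LPS+LCC-12 over LPS, on counts scaled by the trimmed mean of M values (TMM), and the interval after each is the exact 95% counting interval. Higher and lower below mean a ratio of 2-fold or more with a minimum of 50 counts in one of the libraries; a smaller fold is given as a value within that limit. In bulk RNA, fewer cells of a type and less RNA per cell cannot be told apart. Genes listed as markers of small peritoneal macrophages were present in both libraries. Ccr2 was at 360 with LCC-12 and 365 without, in counts scaled to library size, CPM, and Cd74 at 727 CPM with LCC-12 and 357 without. Ccr2 also stands among the monocyte markers listed, and had the lowest ratio of the 14 small peritoneal macrophage markers (-0.02). Genes of large peritoneal macrophages were also present (Adgre1 at 825 CPM with LCC-12 and 839 without, Timd4 at 105 CPM with LCC-12 and 6.37 without). So were genes of neutrophils (S100a9 at 1464 CPM with LCC-12 and 3913 without).

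Promoter sequences are shown for the genes that differed by at least 2-fold and held a motif of LPS- or interferon-responsive factors near an annotated start, together with Il6, which held one and did not differ by 2-fold. The sequences are from RefSeq on GRCm38.p6, the build of the counts, and run 5′ to 3′ on the strand of the gene from 250 bases before to 50 bases after the start, so the start is base 251. Capitals mark the motif match. Il15ra has 2 such windows, at chr2:11705043-11705342 and chr2:11705462-11705761 (plus strand), Csf3r lies at chr4:126024409-126024708 (plus strand), the Il16 window at chr7:83655446-83655745 (minus strand) belongs to an internal start, and Il6 lies at chr5:30012864-30013163 (plus strand).
Il15ra, first start: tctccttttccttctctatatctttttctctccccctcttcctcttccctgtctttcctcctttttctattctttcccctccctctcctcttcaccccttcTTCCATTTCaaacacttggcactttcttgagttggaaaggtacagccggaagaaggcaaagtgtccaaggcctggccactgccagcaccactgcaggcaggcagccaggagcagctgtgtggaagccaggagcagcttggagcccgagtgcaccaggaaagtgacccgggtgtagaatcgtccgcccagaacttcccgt
Il15ra, second start: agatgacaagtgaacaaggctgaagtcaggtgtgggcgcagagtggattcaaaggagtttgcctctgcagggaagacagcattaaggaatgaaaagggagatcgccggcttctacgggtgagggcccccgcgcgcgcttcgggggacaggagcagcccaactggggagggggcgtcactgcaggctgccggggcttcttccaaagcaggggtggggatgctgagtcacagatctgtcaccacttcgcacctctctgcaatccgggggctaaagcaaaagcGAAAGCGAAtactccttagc
Csf3r: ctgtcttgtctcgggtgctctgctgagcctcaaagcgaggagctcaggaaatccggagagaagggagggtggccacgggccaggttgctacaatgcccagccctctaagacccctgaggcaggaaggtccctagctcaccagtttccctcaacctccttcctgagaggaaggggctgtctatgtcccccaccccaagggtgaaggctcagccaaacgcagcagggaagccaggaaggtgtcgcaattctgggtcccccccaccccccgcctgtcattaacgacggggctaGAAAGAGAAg
Il16, internal start: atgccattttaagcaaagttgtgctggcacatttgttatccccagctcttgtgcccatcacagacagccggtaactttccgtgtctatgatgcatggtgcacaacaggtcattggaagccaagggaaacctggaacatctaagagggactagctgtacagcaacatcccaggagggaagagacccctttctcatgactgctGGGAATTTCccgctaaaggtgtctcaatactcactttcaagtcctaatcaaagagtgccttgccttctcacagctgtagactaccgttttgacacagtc
Il6: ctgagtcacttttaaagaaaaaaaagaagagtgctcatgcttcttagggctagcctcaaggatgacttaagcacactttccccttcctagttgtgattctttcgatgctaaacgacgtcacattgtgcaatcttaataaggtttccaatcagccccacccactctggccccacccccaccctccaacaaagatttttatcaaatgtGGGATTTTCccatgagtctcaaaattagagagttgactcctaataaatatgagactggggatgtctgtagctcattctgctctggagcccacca

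The interferon-response core GAAANNGAA, searched on both strands, was found at bases 102 to 110 of the first Il15ra window, on the opposite strand, at bases 281 to 289 of the second, and at bases 291 to 299 of Csf3r, after the start in the last 2 cases. The kappa B core GGGNNTTTC was found at bases 202 to 210 of the Il16 window and bases 207 to 215 of Il6. Windows were found for 28 of the 42 genes, 35 windows in all. The interferon core was in 4 of the 35, those of Csf2, Csf3r and both of Il15ra, and in 8.56% of 32851 windows of all genes. The kappa B core was in 5 of the 35, those of Csf1, Il16, Il17rc, Il4ra and Il6, and in 4.36% of all windows. The STAT core TTCNNNGAA was in 3 of the 35, those of Csf2rb2, Il12rb2 and Il7r, and in 8.30% of all windows. Of the genes at least 2-fold higher or lower, Il10, Csf3 and Il27ra had no window and so were not searched. The windows of Il12a, Il21r and Ebi3 held none of these motifs, and neither did the other Il16 windows. A match of these letters is a description of the window and not evidence of a bound factor.

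Of the 42 genes, 35 passed the minimum of 50 counts. Among these, 2 were 2-fold or more higher in the LPS+LCC-12 library (5.71%), and 4.01% of 13482 genes in all were. At least 2-fold lower were 7 (20.0%), against 6.65% of all genes, and 26 were within 2-fold. The median log2 ratio was -0.37 over the 35 genes and 0.02 over all 13482. By role, of 11 ligand genes with enough counts, 5 were lower and 0 higher, with a median of -0.86, whereas of 24 receptor genes 2 were lower and 2 higher, with a median of -0.18. The counting interval lay below 0 for 9 of the 11 ligands and 13 of the 24 receptors, and above 0 for 0 ligands and 5 receptors. Over all 13482 genes it lay below 0 for 4430 and above 0 for 4915. The nearest genes to the 2-fold limit were Il15ra, 2.04-fold lower, and Il2ra, 1.95-fold lower.

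**Figure D1:**
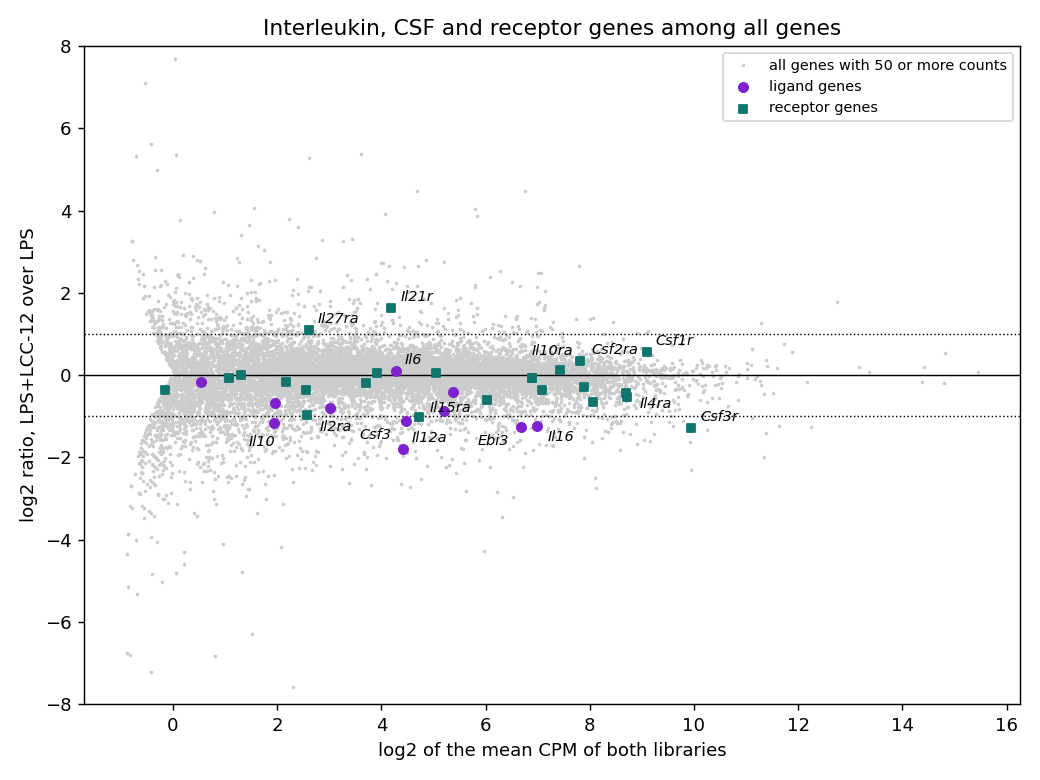
Each point is a gene that passed the minimum of 50 counts; the x axis is the log2 of its mean CPM over both libraries and the y axis its log2 ratio, LPS+LCC-12 over LPS, with dotted lines at 2-fold. Ligand genes (circles) lie mostly below 0, with Il12a lowest at -1.80, and receptor genes (squares) lie on both sides, with Il21r highest at 1.64 and Csf3r lowest at -1.28.

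The IL-12 family is built of paired subunits, and the 3 subunit genes with enough counts had ratios below 0, of which 2 were lower with LCC-12. Il12a, the alpha subunit of IL-12 (GRCm38 chromosome 3, bases 68690644 to 68698547), had 460 counts in the LPS+LCC-12 library and 1653 in the LPS library. It was 3.48-fold lower (log2 ratio -1.80, -1.95 to -1.65), the lowest ratio of the 35 genes. Ebi3, which pairs with the Il27 product to make IL-27 (chromosome 17, 55952640 to 55957022), was 2.41-fold lower with 2898 counts with LCC-12 and 7219 without (-1.27, -1.33 to -1.21). Il27 itself was within 2-fold, with 285 counts with LCC-12 and 509 without (-0.79, -1.005 to -0.58).

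The subunit that IL-12 and IL-23 have in common, Il12b, was close to absent in both libraries, with 2 counts in the LPS+LCC-12 library and 0 in the LPS library. A count of 0 in the LPS library allows up to 0.0601 CPM when 3 counts are taken as the limit. The exact 95% interval used in the plot of levels ends at 0.0376 RPKM. RPKM is CPM per kilobase of exons, and Il12b has 1967 exon bases, so these numbers are in different units. Put in the same unit, the exact limit is the wider, and both cover counting error only. Il12a thus stood at 5.59 RPKM with LCC-12 and 19.5 without, beside an Il12b level of 0.0210 RPKM with LCC-12 and no count without. Il23a, the alpha subunit of IL-23, had 7 counts with LCC-12 and 39 without, too few for the 50-count rule, and its interval lay below 0 (-3.84 to -1.25).

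Some of these subunit genes share exon bases with a gene on the other strand, and whether the counting used strand is not given in the sources used here. Il27 shares 103 of its 1021 exon bases with Apobr, which had 11310 counts with LCC-12 and 15835 without and a log2 ratio of -0.44. Ebi3 shares 270 bases with the antisense gene Gm16712, which had 29 counts with LCC-12 and 130 without. The Gm16712 counts were under 2% of those of Ebi3 in either library.

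On the receiving side of this family, the chain for IL-27 was higher. Il27ra, which joins Il6st to bind IL-27 (chromosome 8, 84030294 to 84042589), had 402 counts with LCC-12 and 195 without, 2.13-fold higher (1.09, 0.84 to 1.34). Its interval crossed the 2-fold line. Il12rb1, a chain of both the IL-12 and the IL-23 receptor, had 100 counts with LCC-12 and 108 without (-0.06, -0.47 to 0.34), a difference within counting error. Il12rb2, the signalling chain of the IL-12 receptor, had 38 counts with LCC-12 and 51 without (-0.37, -1.02 to 0.26), and 1519 of its 3794 exon bases are shared with Serbp1 on the other strand, with 22249 counts with LCC-12 and 19515 without.

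Il10, which restrains macrophage activation (chromosome 1, 131019845 to 131024974), had 114 counts with LCC-12 and 263 without. It was 2.23-fold lower (-1.16, -1.49 to -0.84), and it was among the least abundant ligands read, at 1.80 RPKM with LCC-12 and 4.02 without. Both chains of its receptor were far more abundant and differed little. Il10ra, the ligand-binding chain, had 8751 counts with LCC-12 and 8242 without (0.13, 0.09 to 0.18). Il10rb, a chain that also serves other cytokines of the IL-10 family, had 5689 counts with LCC-12 and 7599 without (-0.37, -0.42 to -0.32). Per length, Il10ra stood at 51.7 RPKM with LCC-12 and 47.2 without, and Ebi3, next to it in the LPS+LCC-12 library at 51.9 RPKM, had an overlapping counting interval there.

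**Figure D2:**
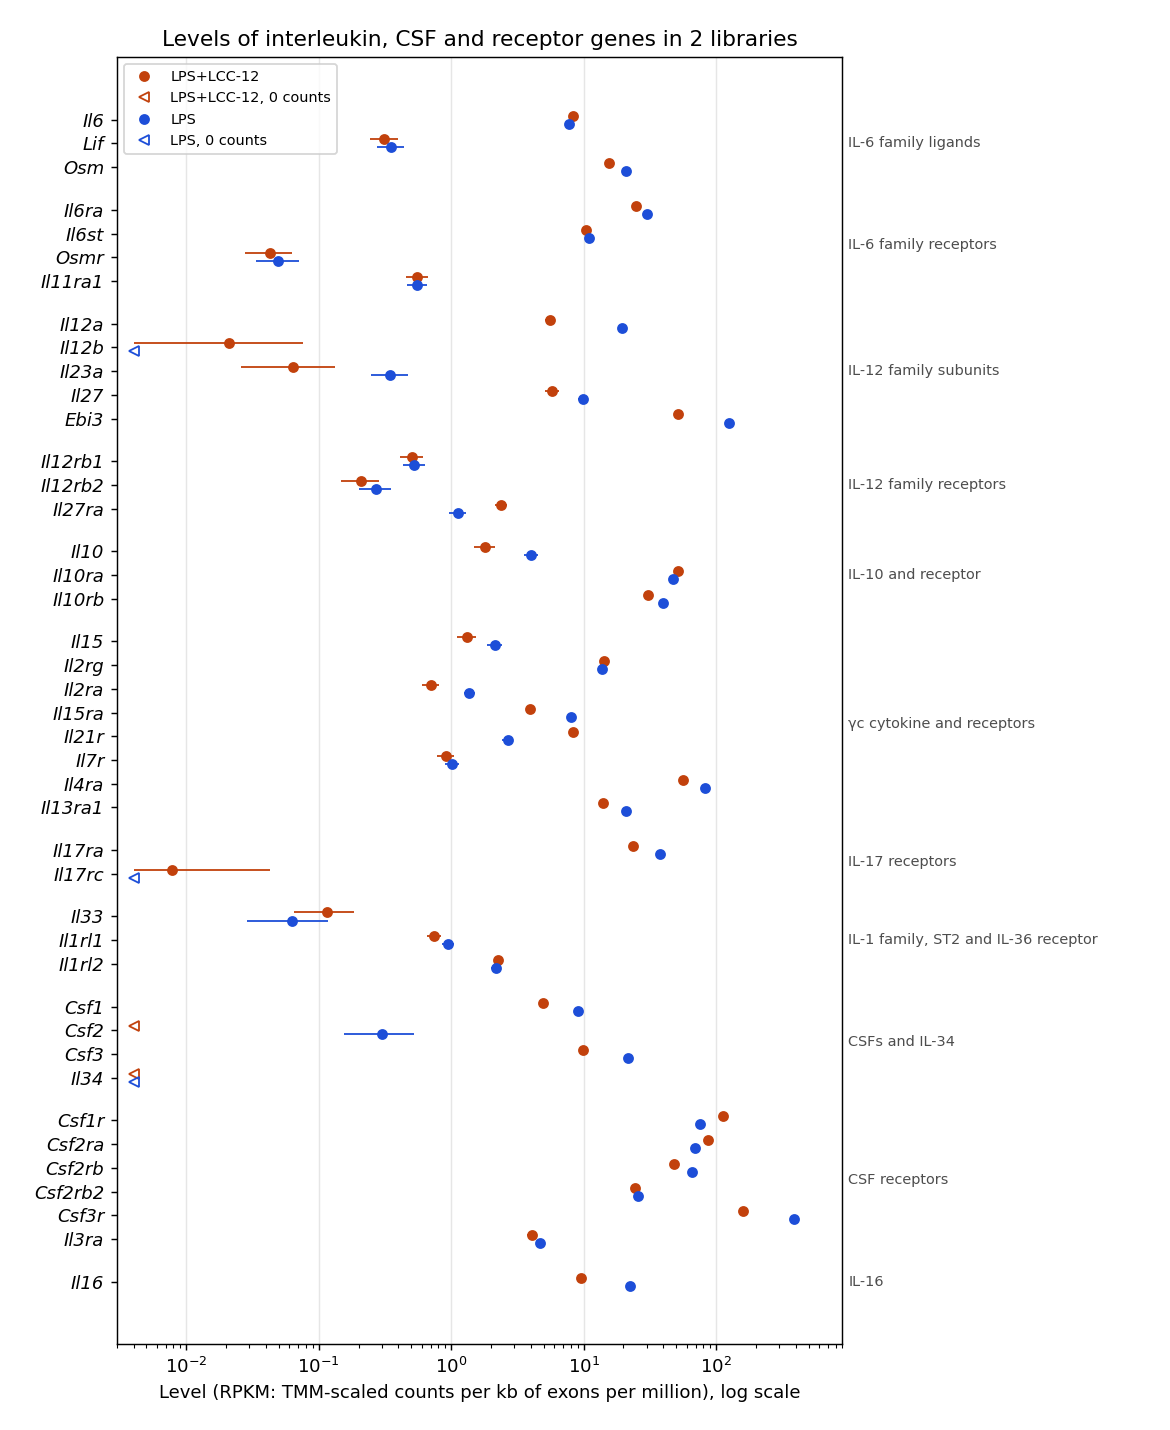
Level of each of the 42 genes in RPKM on a log axis, grouped by family, with LPS+LCC-12 above LPS; bars are exact 95% counting intervals (cut at the left edge) and open triangles at the left edge mark 0 counts. The group labelled γc (common gamma chain) also holds Il13ra1, the partner of Il4ra in binding IL-13. Csf3r is the most abundant gene in both libraries, at 159 RPKM with LCC-12 and 387 without, and Il12b, Il17rc, Il34 and, with LCC-12, Csf2 are at or near 0.

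The ligands of the IL-6 family were all within 2-fold. Il6, a driver of the acute phase response (chromosome 5, 30013114 to 30019981), had 969 counts with LCC-12 and 936 without, at 8.25 RPKM with LCC-12 and 7.72 without. Its log2 ratio of 0.10 (-0.03 to 0.23) was the highest among the 11 ligands and within counting error. Osm, which encodes oncostatin M, had 1724 counts with LCC-12 and 2381 without (-0.42, -0.51 to -0.33). Lif, the neighbour of Osm on chromosome 11 with 16.5 kb between them and no coding gene in the gap, had 66 counts with LCC-12 and 76 without (-0.16, -0.66 to 0.34).

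Of the receptors of that family, Il6ra, which binds IL-6, had 10356 counts with LCC-12 and 13037 without (-0.29, -0.32 to -0.25). Il6st, the chain gp130 through which the whole family signals, had 5558 counts with LCC-12 and 6071 without (-0.08, -0.13 to -0.03). Il11ra1, the IL-11 receptor alpha chain, had 120 counts with LCC-12 and 124 without with a ratio of -0.00 (-0.38 to 0.37); 10.3% of the distinct 100-base windows of its transcripts are also in the near-identical Il11ra2, which had 0 counts in both libraries. Osmr, the oncostatin M receptor chain, was at 25 counts with LCC-12 and 30 without in transcripts of 12113 merged exon bases, while its ligand gene was read at 15.7 RPKM with LCC-12 and 20.98 without.

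Among cytokines that signal through the common gamma chain, the receptor chain that presents IL-15 was lower. Il15ra, which holds IL-15 at the cell surface for other cells (chromosome 2, 11705290 to 11734317), had 843 counts with LCC-12 and 1773 without, 2.04-fold lower (-1.03, -1.15 to -0.91). Il15 had 144 counts with LCC-12 and 240 without (-0.69, -0.999 to -0.39), within the 2-fold limit. Il2ra, the alpha chain of the IL-2 receptor, lies 12.1 kb from Il15ra with no coding gene between and had 194 counts with LCC-12 and 392 without (-0.97, -1.22 to -0.72). Il2rg, the common gamma chain itself, had 1636 counts in each library (0.05, -0.05 to 0.15).

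Il21r, the receptor for IL-21, a cytokine made mainly by T cells, had the highest ratio of all 35 genes (chromosome 7, 125603429 to 125633570). It had 1335 counts with LCC-12 and 443 without, 3.11-fold higher (1.64, 1.48 to 1.80), and stood at 8.30 RPKM with LCC-12 and 2.67 without. The gene next to it, Il4ra, lies 24.0 kb away with no coding gene between and had a ratio on the other side of 0. Il4ra, the chain that receives both IL-4 and IL-13, had 16477 counts with LCC-12 and 24694 without (-0.54, -0.57 to -0.51); it shares 571 of its 6002 exon bases with the antisense gene Gm44876, which had 11 counts with LCC-12 and 66 without. Il13ra1, which pairs with Il4ra to bind IL-13, had 2502 counts with LCC-12 and 3902 without, a 1.51-fold difference (-0.59, -0.67 to -0.52). Il7r, a chain of the IL-7 receptor best known from lymphocytes, had 205 counts with LCC-12 and 237 without (-0.16, -0.44 to 0.11). The other T cell markers ran from 2 to 55 counts with LCC-12 and from 2 to 104 without. The most abundant of them, Cd3d, had 55 counts with LCC-12 and 104 without (-0.87, -1.37 to -0.39). The other 6 were under 50 counts in both libraries, among them Cd3g with 22 counts with LCC-12 and 25 without, Cd3e with 4 counts with LCC-12 and 31 without, and Trac with 5 counts with LCC-12 and 2 without.

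**Figure D3:**
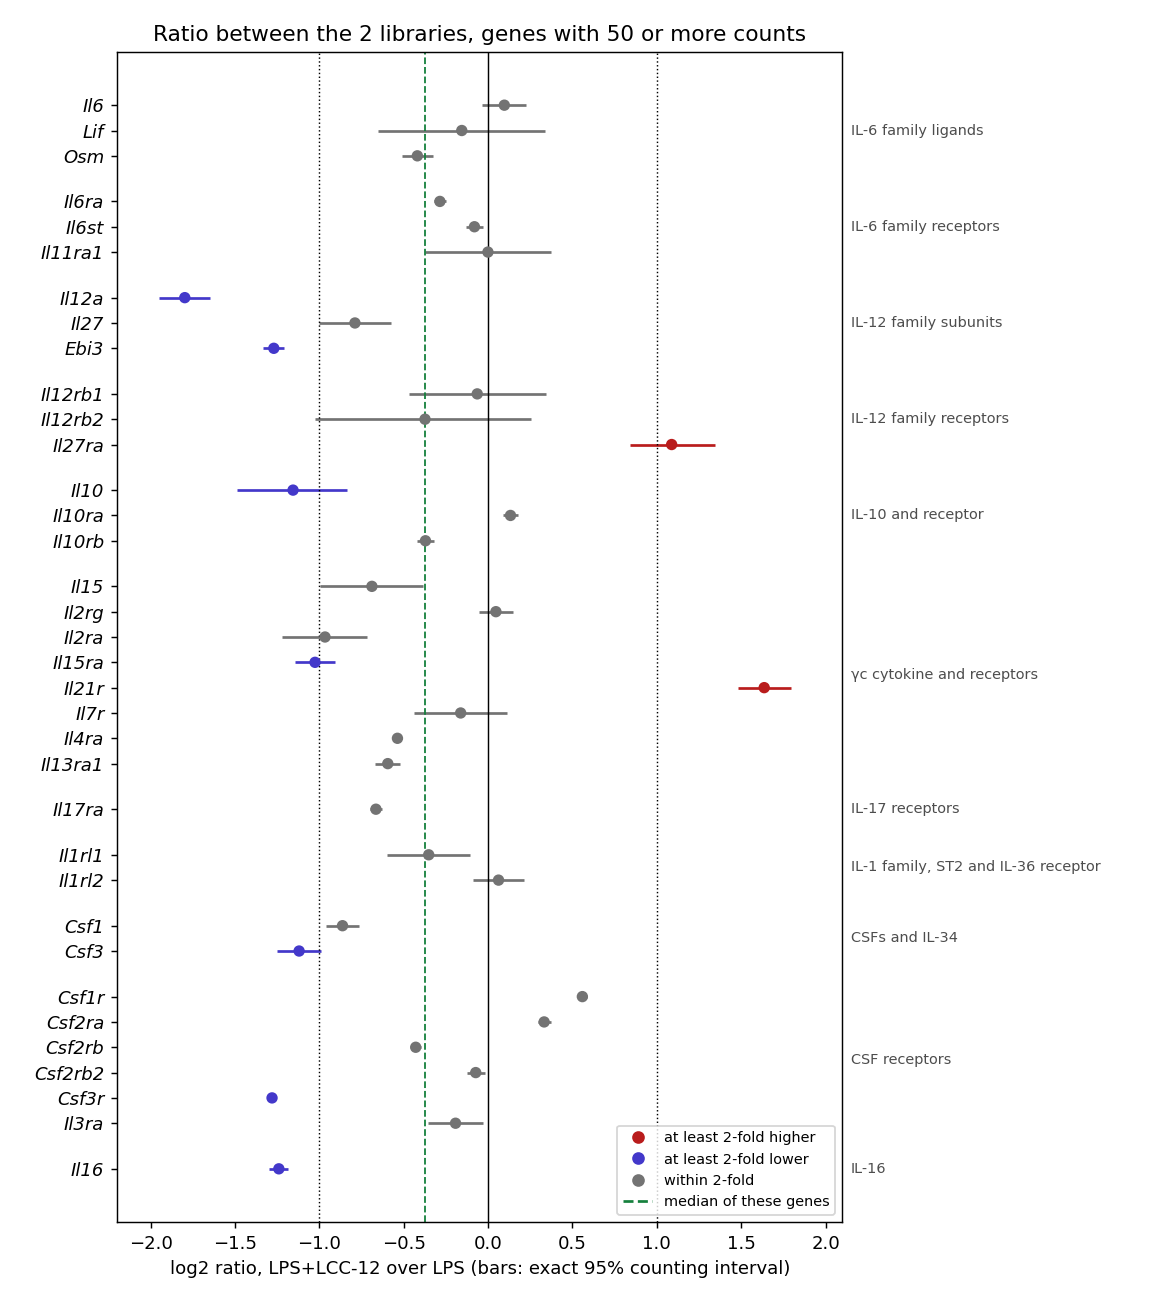
Log2 ratio of the 35 genes with 50 or more counts, LPS+LCC-12 over LPS, grouped by family; bars are exact 95% counting intervals, dotted lines mark 2-fold and the dashed line the median of -0.37. The group labelled γc (common gamma chain) also holds Il13ra1, the partner of Il4ra in binding IL-13. The genes at least 2-fold higher are Il21r and Il27ra, and the genes at least 2-fold lower are Il12a, Csf3r, Ebi3, Il16, Il10, Csf3 and Il15ra.

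Of the colony-stimulating factor genes, Csf3 was lower and Csf1 was within 2-fold, and Csf2 and Il34 had few or no counts. Csf3, which drives the making and release of neutrophils (chromosome 11, 98701263 to 98703629), had 680 counts with LCC-12 and 1527 without, 2.17-fold lower (-1.12, -1.25 to -0.99). Csf1, the survival factor of macrophages, had 1268 counts with LCC-12 and 2382 without, a 1.82-fold difference (-0.86, -0.96 to -0.76). Csf2, which encodes GM-CSF, had 0 counts in the LPS+LCC-12 library, and 12 in the LPS library, with an interval of the ratio up to -1.43. The count of 0 allows up to 0.0620 CPM by the limit of 3 counts, and the exact 95% interval of the level ends at 0.0953 RPKM. These are in different units, as Csf2 has 800 exon bases. Il34, the other ligand of the CSF1 receptor, had 0 counts in both.

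Receptors of these factors included the most abundant of the 42 genes, with ratios on both sides of 0. Csf3r, the G-CSF receptor (chromosome 4, 126024550 to 126044440), was 2.43-fold lower, with 27811 counts with LCC-12 and 69778 without (-1.28, -1.30 to -1.26). Csf1r, which marks the macrophage lineage, had 31384 counts with LCC-12 and 22001 without (0.56, 0.53 to 0.58), within the 2-fold limit. Per length, Csf3r led both libraries, at 159 RPKM with LCC-12 and 387 without, while Csf1r was the second at 112 RPKM with LCC-12 and the fourth at 76.3 RPKM without. Of the counts of Csf1r and Csf3r together, a pair chosen after its values were seen, Csf1r held 53.0% in the LPS+LCC-12 library (52.6 to 53.4, exact binomial interval) and 24.0% in the LPS library (23.7 to 24.2). That share does not depend on the scaling. Csf1r shares 873 of 5774 exon bases with Hmgxb3 on the other strand, with 2214 counts with LCC-12 and 2277 without.

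The receptors for GM-CSF and IL-3 were all within 2-fold. Csf2ra, the alpha chain for GM-CSF, had 12150 counts with LCC-12 and 9966 without (0.33, 0.29 to 0.37), and Csf2rb, the beta chain shared with IL-3 and IL-5, had 17075 counts with LCC-12 and 23740 without (-0.43, -0.46 to -0.40). Csf2rb2, the mouse gene for a beta chain specific to IL-3, had 5582 counts with LCC-12 and 6065 without (-0.07, -0.13 to -0.02), and Il3ra had 587 with LCC-12 and 693 without (-0.19, -0.35 to -0.03). The Csf2rb and Csf2rb2 genes lie 20.0 kb apart and are close copies. Of the distinct 100-base windows of Csf2rb2 transcripts, 6.82% also occur in Csf2rb, so a small part of the reads could be counted for either. Csf2rb2 made up 24.6% of the counts of both genes with LCC-12 (24.1 to 25.2) and 20.3% without (19.9 to 20.8).

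Csf3r is a gene of neutrophils as well as of monocytes and macrophages, and neutrophil markers were also lower. Of 13 neutrophil markers, 11 had enough counts, 8 were at least 2-fold lower (72.7%) and 0 higher, with a median of -1.22. Beside this and the marker counts that follow, 6.65% of all genes were lower and 4.01% higher. Their summed level was 4827 CPM with LCC-12 and 12346 without, none was at 0 in both libraries, and Elane and Mpo, genes of neutrophil precursors, had 9 counts or fewer. Of 9 monocyte markers 5 were lower and 1 higher, and their sum was 14080 CPM with LCC-12 and 8403 without, of which Fn1 alone gave 10656 CPM with LCC-12 and 3114 without. Fn1 was the higher gene, and the other 8 had ratios below 0. In the other direction, 12 of 14 genes marking small peritoneal macrophages were higher (85.7%), and 8 of 14 marking large peritoneal macrophages (57.1%). The small macrophage genes summed to 1927 CPM with LCC-12 and 1050 without, and the large macrophage genes to 2228 CPM with LCC-12 and 1377 without. These marker lists were chosen with earlier results of these data known, so their counts are a description and not evidence on cell identity. Of other cells, B cell markers were within 2-fold (6 of 6, summing to 186 CPM with LCC-12 and 161 without), 4 of 4 mesothelial and 3 of 4 fibroblast markers with enough counts were lower from small sums (1.32 CPM with LCC-12 and 7.71 without, and 3.64 CPM with LCC-12 and 12.4 without), and Lum had no count. Sums for T, NK and dendritic cell and eosinophil markers were 9.01 CPM or less in each library, with the eosinophil genes Epx and Prg2 at 0 in both. Endothelial markers summed to 61.7 CPM with LCC-12 and 128 without, of which Pecam1, a gene that macrophages also express, gave 59.3 CPM with LCC-12 and 127 without; the other endothelial gene with enough counts, Cdh5, had a ratio of 0.95. Platelet markers summed to 141 CPM with LCC-12 and 56.8 without, of which Pf4, also known from macrophages, gave 139 CPM with LCC-12 and 53.9 without, while Tubb1 had a ratio of -1.38 and Itga2b one of -0.48. The part of these cells in the ratios of Csf3r, Csf1r, Il21r and the other genes was not tested.

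Il16, a chemoattractant for cells bearing CD4 (chromosome 7, 83642825 to 83745726), was 2.36-fold lower, with 3626 counts with LCC-12 and 8847 without (-1.24, -1.30 to -1.18). It shares 1202 of 7865 exon bases with Stard5 on the other strand, whose 1526 counts with LCC-12 and 1642 without gave a ratio of -0.06. Il17ra, the common chain of IL-17 receptors, had 9933 counts with LCC-12 and 16263 without, a 1.59-fold difference (-0.67, -0.70 to -0.63). Its partner chain Il17rc had 1 count with LCC-12 and 0 without, so of this receptor pair Il17ra alone was read.

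The IL-33 and IL-36 receptor genes lie 62.0 kb apart on chromosome 1. Il1rl1, which encodes ST2, the receptor for IL-33, had 248 counts with LCC-12 and 327 without (-0.35, -0.60 to -0.11), and Il1rl2, the receptor for IL-36, had 746 with LCC-12 and 738 without (0.06, -0.09 to 0.21). Il33 had 16 counts with LCC-12 and 9 without. ST2 is also a product of mast cells. Of the 6 mast cell markers with enough counts, 5 were at least 2-fold lower (83.3%), beside 6.65% of all genes. The sum over 8 markers was 67.8 CPM with LCC-12 and 213 without. Hdc, a histamine-making enzyme that neutrophils and macrophages can also express, gave 62.3 CPM with LCC-12 and 197 without of that sum, and each of the other 7 was at 6.33 CPM or less in both libraries. The part of mast cells in the Il1rl1 ratio was not tested.

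Downstream of these receptors, the 11 Janus kinase and STAT genes measured were within 2-fold, with a median of -0.26. Stat2, which acts in interferon signalling, was nearest the limit with 4784 counts with LCC-12 and 9839 without (-0.99), and Jak1, the most abundant kinase of the list, had 18195 with LCC-12 and 23291 without (-0.31). Of 16 SOCS and other negative regulators, 1 was lower and 0 higher, with a median of -0.10. The lower share of 6.25% was close to the 6.65% of all genes. The lower gene was Socs1, which brakes interferon and cytokine receptors, at 3.70-fold with 463 counts with LCC-12 and 1770 without. On the other side, Socs6 was just within the limit at 1.98-fold, with 1795 counts with LCC-12 and 934 without (0.99, 0.87 to 1.10). Of 12 genes of the IL-10 and STAT3 response, 0 were lower and 1 higher (8.33%, beside 4.01% of all genes), with a median of -0.38. That gene was the hemoglobin scavenger receptor Cd163, 5.57-fold higher with 10583 counts with LCC-12 and 1962 without, while Socs3 had 18135 counts with LCC-12 and 28786 without (-0.62). This list holds Il4ra, itself among the 42 genes described, and shares Socs3 with the negative regulators.

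Genes known to respond to IL-4 and IL-13 through STAT6 had a median of 0.86. Of 14 with enough counts 7 were higher (50%, beside 4.01% of all genes) and 2 lower (14.3%, beside 6.65%). Retnla, a secreted protein of alternatively activated macrophages, was 6.34-fold higher with 2187 counts with LCC-12 and 356 without. The chemokine gene Ccl24 was 6.14-fold higher with 1805 counts with LCC-12 and 303 without, Irf4, a transcription factor, 4.68-fold on 1553 counts with LCC-12 and 342 without, and Pparg, a lipid-sensing nuclear receptor, 3.64-fold with 188 with LCC-12 and 53 without. The lower genes were Chil3, 2.52-fold with 33174 counts with LCC-12 and 86245 without, and Pdcd1lg2, 2.70-fold with 52 with LCC-12 and 146 without. Arg1, the most abundant gene of the list, was within 2-fold with 130099 counts with LCC-12 and 86622 without (0.63). Il4 had 3 counts in each library and Il13 had 0, and the receptor genes Il4ra and Il13ra1 had ratios of -0.54 and -0.59. This list shares Clec10a, Irf4, Mrc1 and Retnla with the markers of small peritoneal macrophages and Chil3 with those of monocytes.

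Of 49 other interleukin, growth factor and receptor genes outside the 42, 38 did not reach 50 counts and 22 had no count in either library. Of the 11 with enough counts, 2 were lower (18.2%, beside 6.65% of all genes) and 0 higher (beside 4.01%), with a median of 0.05. Il23r, the specific chain of the IL-23 receptor, was 4.70-fold lower on 13 counts with LCC-12 and 65 without, and Kit, a growth factor receptor that also stands among the mast cell markers, was 3.39-fold lower on 90 with LCC-12 and 316 without. Lifr, the receptor for the Lif product, was the most abundant at 106 CPM with LCC-12 and 80.7 without (0.40).

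**Figure D4:**
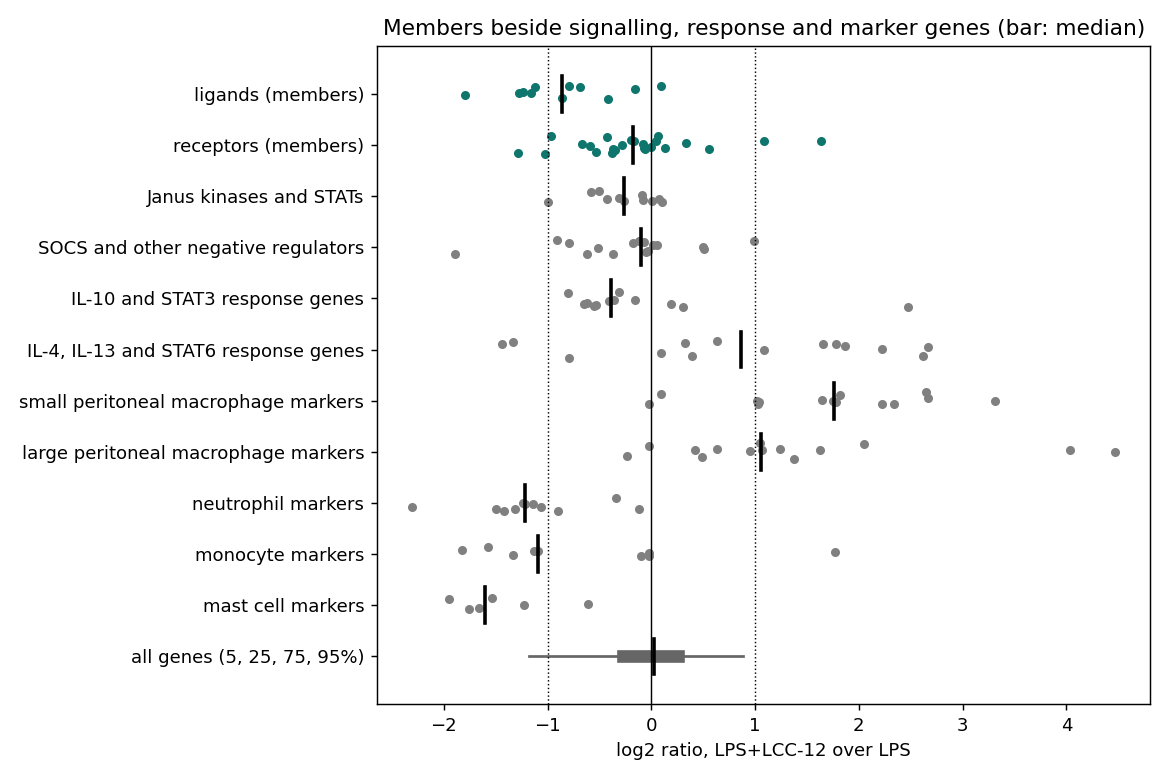
Log2 ratio, LPS+LCC-12 over LPS, of single genes (points, with vertical jitter) with 50 or more counts in each list, with the median as a black bar; the bottom row gives the 5th to 95th percentile range (thin line) and quartiles (thick line) of all 13482 genes. The ligand median is -0.86 and the receptor median -0.18, beside medians of -1.22 for neutrophil markers, -1.09 for monocyte markers and 1.77 and 1.06 for markers of small and large peritoneal macrophages. The lists were chosen with earlier results of these data known.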

How the data were processed

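Each group was 1 stranded, ribosome-depleted library from 10 ng of total RNA with 12 PCR cycles, per the labels' protocols. The molecule field of the labels says polyA RNA instead, and which is right is not known here. The authors deposited raw counts per gene. The submitters' processing notes name STAR and mm10; the counter, its strand setting and its annotation are not stated in the sources used here. GENCODE M21 matched 55394 of 55487 IDs, and 93 unmatched IDs summed to 325 counts (LPS+LCC-12) and 304 counts (LPS). TMM scaling used edgeR 4.0.16 under R 4.3.3, with 0.5 counts added in proportion to library size for log2 ratios. Intervals are exact (Clopper-Pearson or Poisson, scipy 1.17.1) and take in only counting error, as reads copied by PCR are not separate molecules. RPKM used merged exon lengths, which lowers genes with long rare isoforms. No p-value can be given with single libraries. The calculation was tested on simulated data.

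Described singly were listed genes past 2-fold, past 1.5-fold with an interval without 0, or most abundant in their family; from other lists, up to 4 genes past 2-fold, or the most abundant. Stat2, Socs3, Socs6, Lifr, Il4, Il13 and the other genes given outside that rule were named after their values were seen. Genes, lists, motifs and rules were chosen with earlier results of these data known. Other scalings tried were total counts, the upper quartile, median of ratios (DESeq2 1.42.0) and totals without the 100 most abundant genes; other minimums, limits and added counts were also tried.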

Additional observations from a re-analysis of the deposited data

How the results depend on the processing

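The median log2 ratio of the genes ran from -0.42 (count minimum 200) to -0.31 (totals without the 100 most abundant genes) over the alternatives run. The count of genes at least 2-fold higher was 2 under every scaling and with 5 added counts, and became 4 with a count minimum of 1, where Il12b and Il17rc enter on 2 counts or fewer, and 1 with a 3-fold limit or with the whole interval beyond 2-fold, where Il27ra drops out. The count at least 2-fold lower ran from 6 to 8 over the scalings, as Il15ra left or Il2ra entered. It was 13 with a 1.5-fold limit, 1 with a 3-fold limit, where only Il12a stays, and 4 with the whole interval beyond 2-fold, where Csf3, Il10 and Il15ra drop out. With a count minimum of 1 it was 9 of 41 genes, beside 24.2% of all genes at that minimum. With a minimum of 10 it was 9 of 39, beside 13.1%. Csf2 and Il23a entered in both cases. At the minimum of 1 the listed genes were thus not lower more often than all genes. The 4 of 41 that were higher there stood beside 15.5% of all genes. Among the 13482 genes with 50 or more counts, 540 were higher (4.01%) and 896 lower (6.65%). The 1.5-fold limit gave 1304 (9.67%) and 1794 (13.3%), and the 3-fold limit 195 (1.45%) and 340 (2.52%). With the whole interval beyond 2-fold there were 299 (2.22%) and 521 (3.86%). A minimum of 200 counts gave 298 (2.85%) and 438 (4.18%) of 10468 genes. A minimum of 10 gave 1462 (8.02%) and 2387 (13.1%) of 18219. A minimum of 1 gave 4143 (15.5%) and 6439 (24.2%) of 26660. Over 175 single values, 152 stayed within the counting interval of the reported ratio. No gene past 2-fold changed sign, and Il11ra1, at 0, was the only gene whose sign changed. The largest shift was 0.060 in log2, as another scaling moves all genes by nearly the same amount. A gene past 2-fold could not change sign under such a shift, so no conclusion is drawn from that. No paired analysis was possible because each group had 1 library, and no library could be left out for the same reason. Depth limits Il12b, Il17rc, Il33, Il34, Csf2, Il23a and Osmr, for which a 2-fold difference was not readable under the 50-count rule.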

Other observations

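Several interleukin and receptor genes outside the list had few counts that fell mostly in 1 library. Il31ra, a receptor chain for IL-31, had 0 counts in the LPS+LCC-12 library and 14 in the LPS library, and Il17rb, the receptor for IL-25, had 0 with LCC-12 and 10 without. In the other direction, Il17f had 6 counts with LCC-12 and 0 without, Il7, a survival factor of lymphocytes, had 30 with LCC-12 and 10 without, and Il17rd had 24 with LCC-12 and 6 without. None reached 50 counts, and with 1 library per group none was tested.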
